A study of Mus musculus with 12 samples.

Results

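Single cassette exons are exons that a transcript can either include or leave out between the same 2 neighbours. They were taken from 6 RNA-seq libraries of mouse cumulus cells as the entries listed with an included form, a skipped form or both, and matched between libraries by chromosome, start, end, strand and gene. An exon was kept where the summed level of its forms reached at least 1 FPKM (fragments per kilobase of transcript, scaled to the size of the library) in all 6 libraries. Of 13183 such exons listed in any library, 5300 were kept, and they lie in 3195 genes. The lowest summed level of a kept exon in its weakest library was 1.00079 FPKM, and the highest of an exon left out was 0.999944 FPKM.

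Cumulus cells are the somatic cells around the oocyte. The labels give them as granulosa cells of antral follicles from Kunming mice, and the same for all 6 libraries. The FSH and FBS group holds 3 libraries of cells treated for 18 hours with follicle-stimulating hormone (FSH) and fetal bovine serum (FBS) together, and the untreated group holds 3. FSH and FBS were given only together, and no time in culture is labelled for the untreated cells, so FSH, FBS and time in culture cannot be told apart. The series' design text speaks of complexes cultured with their oocyte in a medium that allows expansion, and of complexes freed of their oocyte that became apoptotic in another medium, but the labels do not tie either to a group. The comparison here asks which genes differ in exon use between the groups. The labels do not say whether numbered libraries are separate cultures or animals, and p-values then cover only the spread among these samples, which can be technical. The small-RNA libraries were not analysed here.

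Cassette exons are often chosen while the transcript is still being made, by the spliceosome and by RNA-binding proteins that favour or block a splice site. SR proteins, their kinases of the Clk family, hnRNPs and tissue-restricted factors such as muscleblind, Rbfox and Musashi proteins are regulators of this kind, and many of their own genes carry cassette exons. A coding exon whose length is a multiple of 3 can be added or left out without a shift of the reading frame, whereas other lengths shift it. FSH acts on granulosa cells through a G protein-coupled receptor that raises cAMP, and the cumulus cells then build a matrix rich in hyaluronan.

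The included share is the level of the included form as a percentage of both forms together. Most kept exons sat near one end of this scale. The mean share over the 6 libraries was above 90% for 2272 exons, below 10% for 1880, and between 10% and 90% for 1148. In 864 exons only the included form was listed in every library, in 934 only the skipped form, and in 959 both. In the remaining 2543 a form was unlisted in some library, and an unlisted form was taken as 0. The files hold FPKM and no read counts, so depth is unknown and no counting interval can be given.

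Apart from FSH and FBS libraries 1 and 2, libraries of a group were about as far apart in exon use as libraries of different groups. Over the 1148 exons with intermediate shares, the median absolute difference was 8.24 percentage points between FSH and FBS libraries 1 and 2, and 11.6 points between untreated libraries 1 and 2. Library 3 lay 15.9 to 17.6 points from the other libraries of its group. Pairs of libraries from different groups lay 11.6 to 19.2 points apart. Libraries 1 and 2 of each group were nearly identical in gene levels in earlier work on these files and were averaged and counted as 1 sample, so group means and SDs are over 2 samples (n = 2). The SDs and SEs below therefore leave out the spread between libraries 1 and 2 of a group, even where these lay far apart. Library 3 also listed fewer included forms, 5883 and 6087 in the treated and untreated group against 6964 to 8256 in the other libraries. More kept exons stood at exactly 0% or 100% in it.

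**Figure D1:**
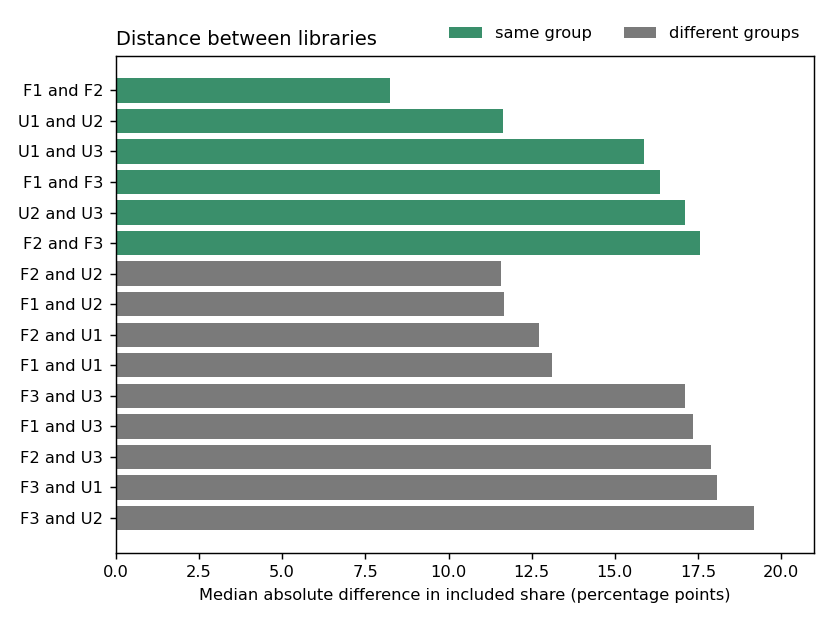
Median absolute difference in included share, in percentage points, between each pair of libraries over the 1148 exons with a mean share of 10% to 90% (F, FSH and FBS; U, untreated). Pairs of the same group are green and pairs of different groups grey; the shortest bar is F1 and F2 at 8.24 points, and pairs of different groups span 11.6 to 19.2 points.

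Marker genes of the labelled cells were present. The summed last-exon level of 13 cumulus and granulosa markers was 702 to 949 FPKM after FSH and FBS and 1335 to 1526 FPKM in untreated cells. Inha stood at 276 to 282 FPKM against 350 to 502 FPKM, and Nr5a2 lay the other way, at 47.6 to 61.4 FPKM against 22.7 to 30.2 FPKM. Amh was low, at 4.37 to 12.6 FPKM against 1.28 to 2.38 FPKM, Fshr was listed in untreated library 2 alone, and Foxl2 in no library. Sums over oocyte, theca and stroma, and leukocyte markers lay lower after FSH and FBS. The sum over 25 oocyte markers was 5.52, 5.69 and 24.5 FPKM after FSH and FBS and 27.1, 28.9 and 31.1 FPKM in untreated cells, with 3, 3 and 8 of them listed against 16, 14 and 11, and Bmp15 in none. Zp3 was listed only in untreated libraries, at 1.38 to 1.76 FPKM. Gdf9 was listed only in treated libraries 1 and 2, at 0.242 and 0.0283 FPKM. The sum over 12 theca and stroma markers was 18.9 to 24.5 FPKM against 65.8 to 82.2 FPKM, and that over 15 leukocyte markers 2.95 to 7.37 FPKM against 8.97 to 12.1 FPKM, with Ptprc listed in none. Endothelial markers lay the other way at a low level, at 2.06, 1.93 and 2.70 FPKM against 0, 0.499 and 0.984 FPKM. Erythroid markers summed to at most 1.92 FPKM and overlapped between the groups. In bulk RNA, fewer cells of a type and less RNA per cell cannot be told apart, and the part of these cells in the shares below was not tested.

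With 2 samples a group, no exon passed the test for a difference between FSH and FBS and untreated cells. The limma fit on the log2 ratio of the included to the skipped form, with Benjamini-Hochberg adjustment, called 0 of 5300 exons (0.00%). Its lowest adjusted p was 0.552, and 406 exons (7.66%) had an unadjusted p below 0.05. Exons are therefore described by size. An exon is called separated here where its group means differ by at least 20 points and the 3 libraries of one group all lie above the 3 of the other, a rule that carries no p. Libraries 1 and 2 count singly in this rule. If they repeat 1 sample, 3 libraries stand for no more than 2 samples a group. By this rule 109 exons (2.06%) in 103 genes were separated, 31 (0.585%) higher and 78 (1.47%) lower after FSH and FBS. Without the size limit, 115 exons (2.17%) lay higher and 203 (3.83%) lower in all libraries. Differences below are FSH and FBS minus untreated, in percentage points.

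**Figure D2:**
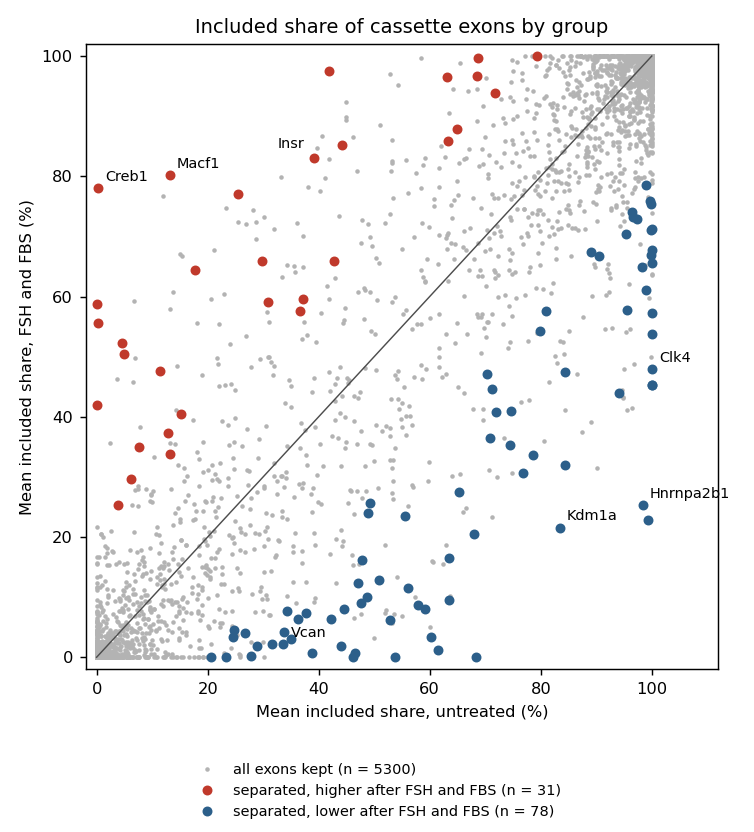
Mean included share in untreated cells (x axis, %) against the mean after FSH and FBS (y axis, %) for 5300 cassette exons, each mean over 2 samples. Red points are the 31 separated exons that lay higher and blue points the 78 that lay lower after FSH and FBS; the black line marks equal shares.

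The exon with the largest positive difference was a 42-nt exon of Creb1 (chr1:64559727-64559768), the transcription factor that binds cAMP response elements. Its included share was 63.5%, 59.0% and 94.9% in treated libraries 1, 2 and 3, against 1.26%, 0% and 0% in untreated libraries 1, 2 and 3, the order used throughout. The exon was thus nearly always left out of the untreated transcripts and was the more frequent form in every treated library. Group means were 78.1% ± 23.8 and 0.316% ± 0.447 (SD, n = 2), a difference of 77.8 points (SE 16.8), with an unadjusted limma p of 0.00224 and an adjusted p of 0.592. The included form stood at 7.62, 6.73 and 2.15 FPKM against 0.135, 0 and 0 FPKM, the skipped form at 4.38, 4.67 and 0.116 FPKM and 10.5, 6.87 and 3.25 FPKM. The exon encodes the alpha peptide that sets the longer CREB form apart from the shorter one.

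Other exons of hormone and growth factor signalling genes lay higher as well. Insr encodes the insulin receptor, and its 36-nt exon (chr8:3181702-3181737) decides between the B form, which includes it, and the A form, which lacks it and also binds IGF2. Its share was 59.9%, 72.5% and 100% after FSH and FBS and 49.3%, 18.1% and 44.6% in untreated cells. The groups did not overlap, although library 3 was far above the other treated libraries. The difference was 43.9 points (SE 17.7, adjusted p 0.643), and 27.1 points without treated library 3. The included form was listed at 7.80, 8.14 and 7.20 FPKM against 4.75, 2.12 and 2.32 FPKM.

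A 69-nt exon of Camk2g, the gamma chain of calcium/calmodulin-dependent kinase II, was included at 50.9%, 75.5% and 54.9% against 35.1%, 32.0% and 28.1%, a difference of 28.2 points. All treated libraries were above all untreated ones by a clear margin. An 81-nt exon of Map3k7, the kinase TAK1 of TGF-beta and cytokine signalling, stood at 63.1%, 47.9% and 76.3% against 45.1%, 42.3% and 41.9%. Its untreated libraries lay close together and the treated ones were spread, with a difference of 23.1 points that was 11.8 without library 3 of both groups. Another kept Map3k7 exon went the other way without being separated, with its included form listed only in untreated libraries. Among separated exons that lay lower, a 69-nt exon of Tcf7l2, a transcription factor at the end of the Wnt pathway, stood at 18.5%, 32.5% and 0.0773% against 79.3%, 50.8% and 36.6%. A 147-nt exon of Crem, a cAMP-responsive factor with activator and repressor forms, stood at 13.1%, 16.04% and 0% against 25.0%, 24.8% and 50.5%. The Crem difference of -30.4 points was -10.3 without library 3. A second Crem exon, of 36 nt, overlapped between the groups at 38.2%, 63.3% and 63.7% against 71.9%, 52.8% and 18.4%, and another, of 82 nt, stayed at or near 0% in every library.

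The signalling list held 72 kept exons in 30 genes. Of these, 4 were separated and higher and 2 separated and lower, 8.33% against 2.06% of all exons. Without the size limit, 4 of the 72 lay higher and 5 lower without overlap. Intermediate shares, from which 107 of the 109 separated exons come, were found in 21 of the 72, against 1148 of all 5300. The list's median difference was 0, as it was over all exons. Map3k4, a kinase upstream of stress-activated MAP kinases, had its 156-nt exon listed at 13.1%, 10.7% and 0% against 0%, 0% and 0%, so the included form was unlisted in all untreated libraries and also in treated library 3.

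Exons of genes that themselves regulate splicing were among the widest of those that lay lower. Hnrnpa2b1 encodes an abundant hnRNP that binds pre-mRNA. Its 136-nt exon (chr6:51461920-51462055) was included at 15.7%, 48.4% and 18.6% after FSH and FBS and 99.8%, 96.2% and 98.8% in untreated cells. Treated library 2 was higher than the other treated libraries but well below every untreated one. The difference was -73.1 points (SE 6.72), with an unadjusted p of 0.000255 and an adjusted p of 0.552. The level of the included form overlapped between groups, at 9.72, 12.997 and 14.8 FPKM against 14.2, 14.7 and 7.44 FPKM. The skipped form did not, at 52.1, 13.9 and 64.5 FPKM against 0.0299, 0.576 and 0.0934 FPKM, so the summed level of both forms moved with the share.

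Clk4 and Clk1 encode kinases that phosphorylate SR proteins, and each has a cassette exon of 91 nt. The Clk4 exon (chr11:51273078-51273168) was included at 29.8%, 55.0% and 53.4% against 99.9%, 99.99% and 100%. Untreated cells thus listed almost no skipped form, and all treated libraries listed both forms at several FPKM. The difference was -52.1 points (SE 5.50, unadjusted p 0.000650, adjusted p 0.574). The Clk1 exon (chr1:58420121-58420211) lay the other way, at 47.9%, 45.2% and 52.6% against 25.9%, 48.2% and 21.7%. Its difference of 20.2 points did not separate the groups, because untreated library 2 lay above treated libraries 1 and 2. A second Clk1 exon, of 167 nt, was included at 86.7%, 88.3% and 92.2% against 92.9%, 92.8% and 83.8%.

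Rbm39 encodes a splicing factor related to U2AF. Its 73-nt exon was included at 2.28%, 1.80% and 30.9% against 75.0%, 47.2% and 65.9%, a difference of -47.0 points. Ptbp1 encodes the polypyrimidine tract-binding protein, which mostly represses exons. Its 78-nt exon stood at 19.6%, 26.6% and 58.9% against 79.6%, 61.0% and 78.9%, a difference of -33.6 points in which treated library 3 was the nearest to the untreated range and without which the difference was -51.5 points. The other 3 kept Ptbp1 exons, of 31, 34 and 117 nt, sat at one end of the scale, with differences no larger in size than the -1.23 points of the 34-nt exon. Acin1, a protein of spliceosome-bound complexes that is also known from apoptotic chromatin condensation, had a 104-nt exon at 1.46%, 0.950% and 0.0744% against 97.0%, 31.3% and 13.3%. The untreated libraries disagreed widely on this exon, its difference of -38.1 points was -62.9 without library 3 of both groups, and the 120-nt exon of the same gene overlapped between the groups.

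The muscleblind genes Mbnl1 and Mbnl2 share an exon of 54 nt that is known to affect where the proteins sit in the cell. The Mbnl2 copy was included at 36.0%, 39.5% and 51.0% against 23.1%, 28.7% and 24.2%, without overlap and with a difference of 19.4 points, just under the size limit. The Mbnl1 copy was included at 9.52%, 49.9% and 26.4% against 22.5%, 10.7% and 1.34%, which overlapped. A 95-nt exon of Mbnl2 was separated at 81.3%, 77.5% and 92.4% against 66.6%, 70.0% and 58.4%, while the 95-nt exon of Mbnl1 stood at 83.7%, 84.7% and 100% against 92.2%, 80.8% and 100%. The Mbnl2 difference of 22.6 points was 11.1 without library 3 of both groups.

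Some regulators showed small but tight differences. Tial1 encodes TIAR, an RNA-binding protein of U-rich sequences, and its 59-nt exon was at 0%, 0% and 0% against 14.1%, 19.96% and 16.4%, so the included form was listed only in untreated libraries. The difference was -16.7 points, with an adjusted p of 0.574. Rbfox2 had a 40-nt exon at 77.9%, 80.8% and 80.5% against 94.4%, 95.5% and 100%, without overlap and with a difference of -17.5 points. SR genes can use cassette exons to limit their own level, and the kept exons of Srsf3, Tra2b, Srsf6 and Srsf7 did not separate. Whether each of these exons is of that kind was not tested. The 456-nt exon of Srsf3 stood at 11.2%, 0% and 0% against 30.8%, 0% and 14.4%, and the 276-nt exon of Tra2b at 20.9%, 10.5% and 5.21% against 19.7%, 30.2% and 11.7%. The 268-nt exon of Srsf6 stood at 17.7%, 11.2% and 13.3% against 21.1%, 17.7% and 3.38%, and the 36-nt exon of Srsf7 at 88.0%, 94.6% and 100% against 89.4%, 81.1% and 88.6%. Over the splicing factor list, 132 exons in 56 genes were kept, and 1 was separated higher and 5 lower, 4.55% against 2.06% of all exons. Intermediate shares were found in 53 of the 132, against 1148 of all 5300, so these percentages rest on unlike mixes of exons.

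**Figure D3:**
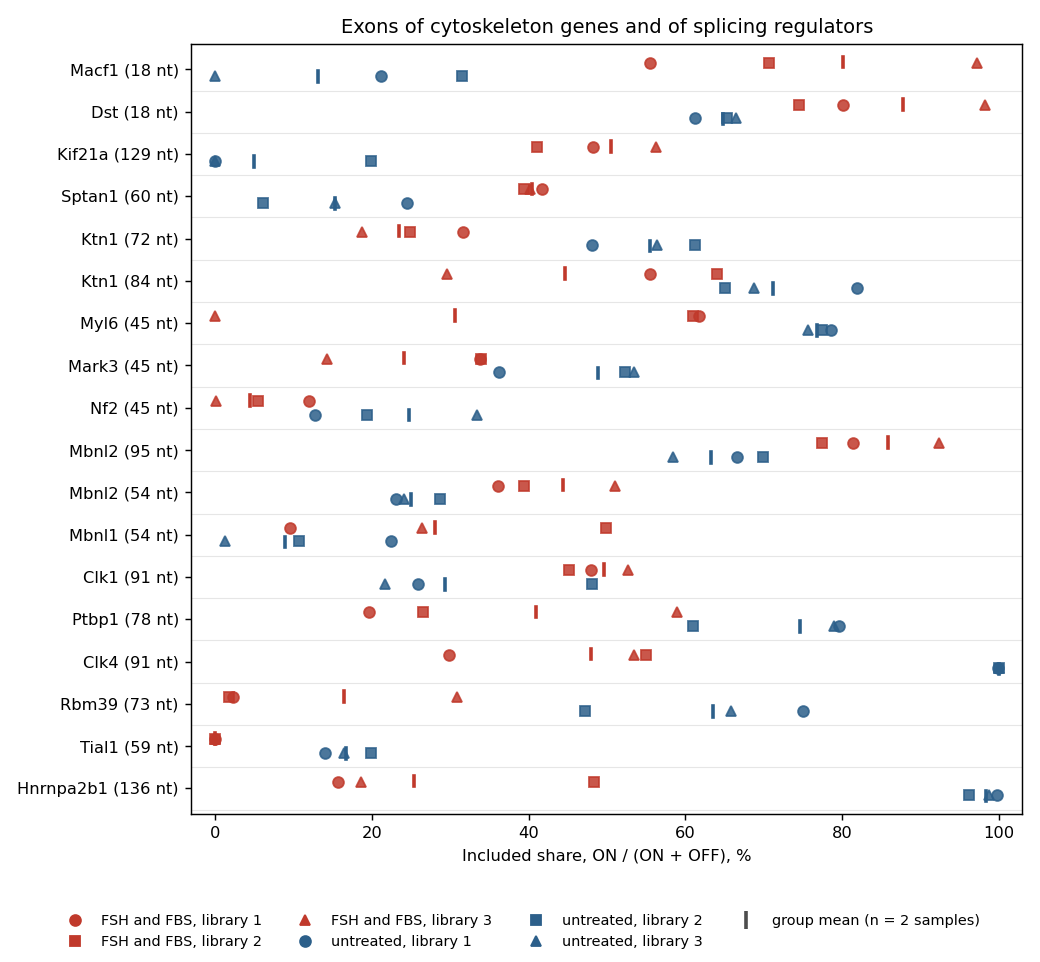
Included share (x axis, %) of 18 exons of cytoskeleton genes and splicing regulators in each library. Red marks are FSH and FBS libraries and blue marks untreated ones, with circles for library 1, squares for library 2 and triangles for library 3; short vertical lines are group means over 2 samples. Macf1 shows the widest gap to the right, and Hnrnpa2b1 the widest to the left.

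Cytoskeleton and adhesion genes held separated exons in both directions. Macf1 and Dst encode spectraplakins, giant linkers of actin and microtubules, and each had an 18-nt exon that lay higher. The Macf1 exon (chr4:123364057-123364074) was included at 55.5%, 70.7% and 97.2% against 21.2%, 31.5% and 0.0250%, a difference of 67.0 points (SE 21.5, adjusted p 0.643) that was 36.8 without library 3 of both groups. The Dst exon was included at 80.1%, 74.5% and 98.3% against 61.2%, 65.3% and 66.4%, and its difference of 23.0 points was 14.1 without library 3. The other 3 kept Macf1 exons stayed at or below 12.6% in every library.

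Kif21a, a kinesin motor, had a 129-nt exon at 48.3%, 41.1% and 56.2% against 0%, 19.9% and 0%, so the included form was unlisted in untreated libraries 1 and 3. Sptan1 encodes alpha-II spectrin of the membrane skeleton, and its 60-nt exon (chr2:30001100-30001159) stood at 41.7%, 39.4% and 40.2% against 24.5%, 6.15% and 15.3%. The treated libraries lay within a few points of one another and the untreated ones were spread below them. The difference was 25.1 points (SE 0.163, adjusted p 0.643), and that SE is small because untreated libraries 1 and 2, which lay far apart, enter as their mean.

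Ktn1 encodes kinectin, a membrane anchor for kinesin, and 6 of its exons were kept. The 72-nt exon was included at 31.6%, 24.9% and 18.8% against 48.1%, 61.2% and 56.3%, without overlap. The 84-nt exon stood at 55.5%, 64.1% and 29.6% against 81.9%, 65.1% and 68.8%, and its treated library 2 lay just below untreated library 2. Its difference of -26.4 points was -13.7 without library 3 of both groups. A 69-nt exon lay lower without reaching the size limit, at 51.2%, 59.8% and 51.9% against 61.3%, 73.7% and 65.8%. The exons of 87, 110 and 116 nt of the same gene overlapped between the groups, so the difference was not shared by all of them.

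Myl6 encodes the essential light chain of non-muscle and smooth muscle myosin, and its 45-nt exon sets the known pair of forms apart. It was included at 61.7%, 61.0% and 0% against 78.6%, 77.5% and 75.7%. Treated library 3 listed no included form, and without library 3 of both groups the difference of -46.2 points was -16.7. Mark3, a kinase of microtubule-associated proteins, had a 45-nt exon at 33.8%, 33.9% and 14.3% against 36.3%, 52.2% and 53.4%, and Nf2, the tumour suppressor merlin, one of 45 nt at 12.05%, 5.51% and 0.196% against 12.7%, 19.5% and 33.5%. In both genes the edge of one group lay close to the edge of the other, and without library 3 the differences were -10.4 and -7.31 points. The 5 kept exons of Tpm1, a tropomyosin gene, differed by at most 0.167 points between group means. In all, 4 exons of the list were separated higher and 5 lower among 134 kept in 54 genes, 6.72% against 2.06% of all exons. Intermediate shares were found in 42 of the 134, against 1148 of all 5300.

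In membrane traffic, Sec31a and Bin1 each had 2 separated exons, the Sec31a exons higher and the Bin1 exons lower. Sec31a encodes the outer coat of COPII vesicles, which leave the endoplasmic reticulum. Its 39-nt exon (chr5:100369596-100369634) was included at 34.9%, 32.6% and 83.9% against 0%, 0% and 0%, so the included form was listed only after FSH and FBS. The level of that form was 18.8, 16.2 and 47.5 FPKM, beside 35.0, 33.6 and 9.10 FPKM of the skipped form. Untreated libraries listed the skipped form alone, at 40.9, 32.8 and 30.1 FPKM. The difference was 58.8 points (SE 25.1, unadjusted p 0.00353, adjusted p 0.643), and 33.7 points without library 3 of both groups. The 291-nt exon stood at 99.0%, 91.0% and 98.1% against 83.5%, 43.9% and 62.7%.

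Bin1 encodes a protein that bends membranes through its BAR domain. Its 129-nt exon was included at 49.97%, 49.6% and 44.6% against 62.2%, 69.9% and 74.6%, a difference of -23.2 points, or -16.3 without library 3. The other separated Bin1 entry spans 5519 nt from the start of this exon to the end of a 72-nt one, and stood at 13.3%, 0% and 0% against 31.7%, 31.8% and 17.5%. The 72-nt exon itself lay higher without overlap, at 58.3%, 56.9% and 58.7% against 46.1%, 44.2% and 44.3%, a difference of 13.4 points, so Bin1 exons did not share a direction. It was chosen after its values were seen. The clathrin light chain exons of Clta and Cltb stayed below 2% in every library. Numb, an endocytic adaptor that limits Notch, overlapped at its 33-nt exon with 29.2%, 15.04% and 89.4% against 64.9%, 17.3% and 100%. The traffic list held 101 exons in 44 genes, of which 3.96% were separated against 2.06% of all exons. Intermediate shares were found in 25 of the 101, against 1148 of all 5300.

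**Figure D4:**
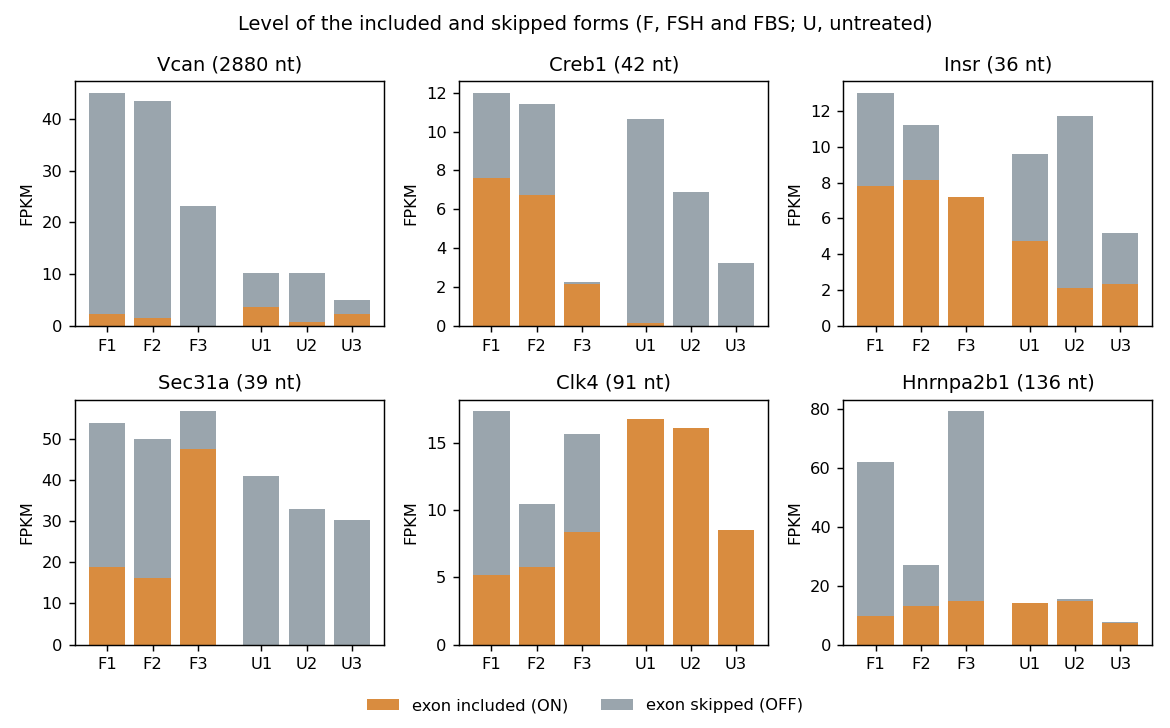
FPKM (y axis) of the included form (orange) and the skipped form (grey) of 6 exons, stacked for each library (F1 to F3, FSH and FBS; U1 to U3, untreated). In Sec31a the included form is seen only in F1 to F3, in Creb1 it is at or near 0 in U1 to U3, and in Vcan and Hnrnpa2b1 the skipped form is taller in all F libraries.

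Matrix genes had few kept exons. Versican, encoded by Vcan, binds hyaluronan in the expanding cumulus matrix, and its 2 large exons encode the regions that carry glycosaminoglycan chains. The 2880-nt exon (chr13:89702918-89705797) was included at 4.96%, 3.58% and 0% against 35.7%, 7.38% and 45.7%. The included form was a minority in every library, and untreated library 2 came close to the treated range. The skipped form stood at 42.8, 41.8 and 23.2 FPKM against 6.63, 9.42 and 2.68 FPKM, and the included form overlapped, at 2.24, 1.55 and 0 FPKM against 3.68, 0.751 and 2.26 FPKM. The difference of -31.5 points (SE 12.3, adjusted p 0.643) was -17.3 without library 3. The 5217-nt exon was the major form throughout, at 94.7%, 96.2% and 92.8% against 90.6%, 100% and 78.5%.

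Fibronectin's extra domain A is encoded by the 270-nt exon of Fn1, which was almost absent apart from 22.2% in treated library 3. The kept exons of Cd44 (207 nt) and Spp1 (3 nt) stood at 0% in every library. Tnc, which encodes tenascin-C, had 2 kept exons of 273 nt, the length of a fibronectin type III repeat. One was included at 27.9%, 24.4% and 35.7% against 15.995%, 16.8% and 38.5%, the other at 90.99% to 100% in every library, and the groups overlapped at both. Of 10 kept exons in 7 genes of the expansion and matrix list, 1 was separated, the Vcan exon of 2880 nt, which is 10% against 2.06% of all exons. Intermediate shares were found in 4 of the 10, against 1148 of all 5300.

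Among apoptosis genes, Birc6 had a separated exon of 173 nt. Birc6 encodes a large protein of the inhibitor-of-apoptosis family with ubiquitin-conjugating activity. The exon was included at 3.80%, 3.83% and 0% against 31.2%, 25.6% and 29.5%, a difference of -27.0 points (SE 1.98, adjusted p 0.643). The untreated libraries were close to one another and all treated ones were low. The 61-nt exon of Casp2, whose inclusion is known to give a short caspase-2, stood at 8.32%, 5.89% and 0% against 0.516%, 9.53% and 0%, and the groups overlapped. Siva1, an adaptor of death receptors, had a 195-nt exon at 86.6%, 89.3% and 86.1% against 91.8%, 92.4% and 93.3%, with no overlap but a difference of only -5.69 points. Exons of the p53 regulators Mdm2 and Mdm4 overlapped or stayed at one end. Of 28 kept exons in 17 genes, 2 were separated, both lower and 1 of them in Acin1, 7.14% against 2.06% of all exons. Intermediate shares were found in 8 of the 28, against 1148 of all 5300.

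Of 23 kept exons in 16 steroid and cholesterol genes, 3 of them with intermediate shares, 1 was separated, 4.35% against 2.06% of all exons. It is a 38-nt exon of Mvk, the mevalonate kinase of cholesterol synthesis, included at 41.0%, 46.3% and 88.1% against 20.8%, 19.2% and 39.5%. Treated library 1 and untreated library 3 lay close together, and the difference of 36.1 points was 23.7 without library 3 of both groups and 13.9 without treated library 3 alone. The list's exons in Cyp11a1, Fdps and Dhcr7 stayed at one end of the scale in every library. Of the 15 kept exons of the stress response list 0 were separated, which says little at a share of 2.06% over all exons.

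Other wide differences lay outside these lists. Kdm1a encodes the histone demethylase LSD1, and its 60-nt exon (chr4:136582040-136582099) was included at 29.4%, 41.8% and 7.49% against 86.1%, 98.1% and 74.7%. It was the minor form in every treated library and the major one in every untreated library. The difference was -61.8 points (SE 16.5, adjusted p 0.643), with the included form at 1.81, 2.36 and 0.815 FPKM against 9.51, 10.8 and 3.67 FPKM. Zmym3, a zinc finger protein found in complexes with LSD1, had a 295-nt exon at 99.1%, 99.99% and 99.9% against 61.2%, 72.8% and 70.4%, so little skipped form was listed after FSH and FBS.

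Ncor1 and Tbl1x encode parts of one corepressor complex of nuclear receptors. The 141-nt exon of Ncor1 was included at 75.5%, 65.5% and 100% against 64.7%, 56.2% and 28.0%. The 66-nt exon of Tbl1x was included at 10.4%, 12.05% and 100% against 0.724%, 0.4996% and 0%. Both exons lay higher, but both rested on library 3, with differences of 10.1 and 10.6 points without it.

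Bbx, an HMG-box protein, had a 90-nt exon at 0%, 37.8% and 0% against 61.1%, 45.0% and 74.1%, with a difference of -54.1 points that was -34.2 without library 3 of both groups. Akap8l, a nuclear anchoring protein related to AKAP95, had one of 60 nt at 0%, 0% and 17.5% against 53.2%, 42.5% and 67.9%, and Repin1, a zinc finger protein, one of 115 nt at 12.7%, 72.7% and 21.4% against 93.1%, 77.8% and 83.2%. All 3 lay lower, and in Repin1 treated library 2 was far above the other treated libraries. The 45-nt exon of Auts2 stood at 99.9%, 81.2% and 0% against 99.99%, 99.997% and 100% and the 58-nt exon of Fam76b at 4.67%, 0.0654% and 13.6% against 22.0%, 14.6% and 100%. Those 2 exons rested on library 3, since their differences were -9.45 and -15.9 points without it.

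The most negative difference belonged to a 98-nt exon of Cop1, a ubiquitin ligase. It was included at 91.6%, 0% and 0% against 100%, 97.2% and 100%, a difference of -76.4 points (SE 22.9). Treated library 1 was near the untreated range while treated libraries 2 and 3 listed no included form. Nipa2, a magnesium transporter, had a 127-nt exon at 0%, 0% and 0% against 71.5%, 44.1% and 78.7%, and Atg7, the E1-like enzyme of autophagy, a 53-nt exon at 0%, 0% and 0% against 42.7%, 100% and 36.2%. Both included forms were listed only in untreated libraries. Nkapd1 had a 27-nt exon at 67.7%, 84.6% and 7.75% against 0%, 0% and 0%, and Igsf3, a membrane protein with immunoglobulin domains, a 60-nt exon at 37.4%, 30.8% and 40.5% against 1.51%, 27.6% and 11.1%. Without library 3 of both groups the Nkapd1 difference of 42.0 points was 76.2, and the Igsf3 difference of 24.5 points was 19.5.

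**Figure D5:**
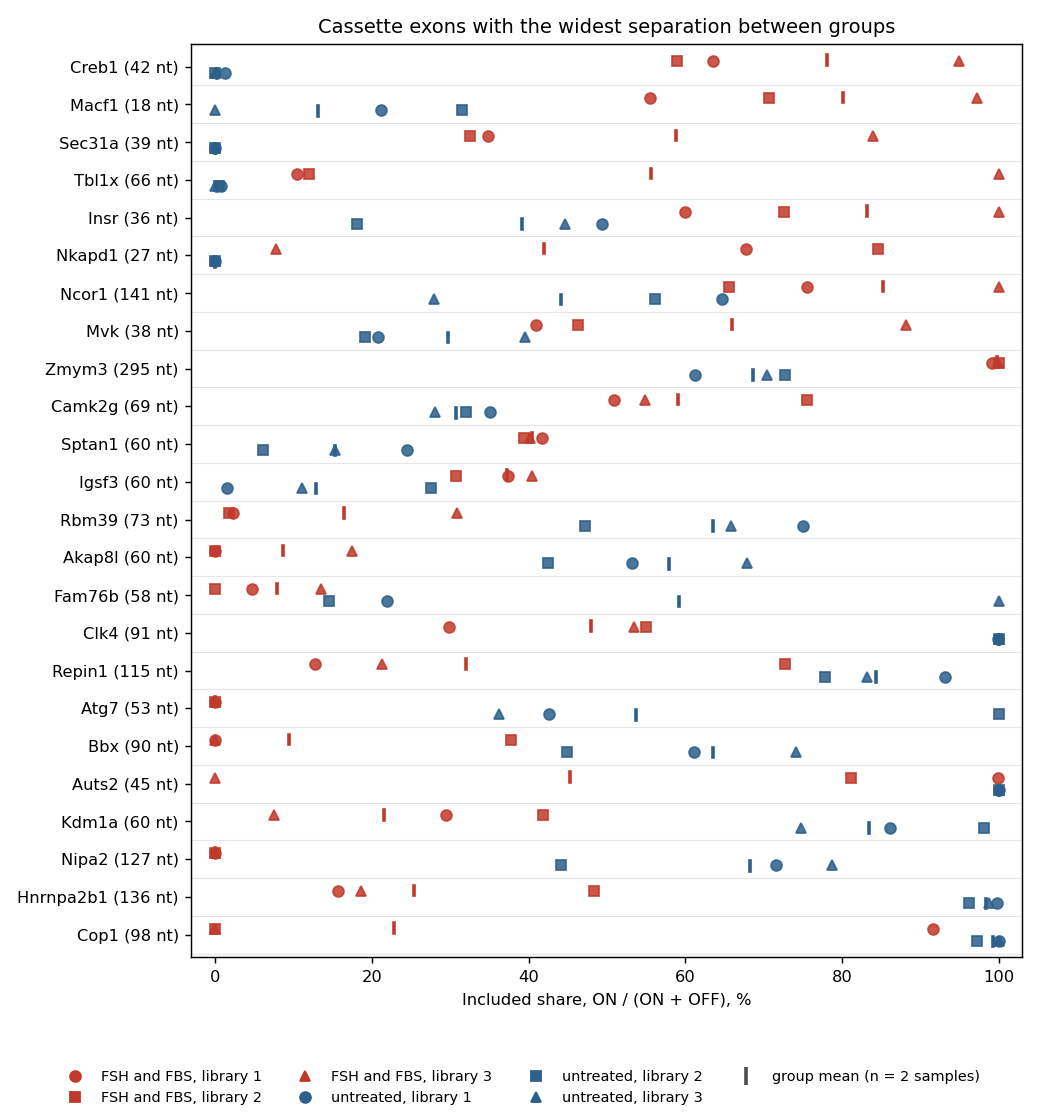
Included share (x axis, %) in each library for 24 separated exons, the 12 highest and the 12 lowest differences, at most 1 a gene, at a mean summed level of at least 5 FPKM in each group. Red marks are FSH and FBS libraries and blue marks untreated ones, with circles, squares and triangles for libraries 1, 2 and 3; short vertical lines are group means over 2 samples. Creb1 stands at the top and Cop1 at the bottom. In several rows, among them Auts2, Cop1, Igsf3, Mvk, Ncor1 and Repin1, a treated library lies near an untreated one.

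Some exons listed a form in all 3 libraries of one group and in none of the other. The included form was restricted in this way to FSH and FBS in 7 exons, 0.132% of all kept (2 of them separated). It was restricted to untreated cells in 13, or 0.245% (4 separated). The skipped form was restricted to FSH and FBS in 23 exons, or 0.434% (4 separated), and to untreated cells in 7, or 0.132% (0 separated). Arhgef6, a Rac and Cdc42 exchange factor, had a 126-nt exon at 70.4%, 67.0% and 62.3% against 100% in all untreated libraries. Hscb, a co-chaperone of iron-sulphur cluster assembly, had a 145-nt exon at 57.9%, 72.9% and 70.2%, again against 100%. Smaller gaps of this kind were seen in Fyn, a Src-family kinase, at 94.6%, 96.4% and 95.2% against 100%, and in Sqle, the squalene epoxidase of cholesterol synthesis, at 97.9%, 98.2% and 97.8% against 100%. The Sqle exon had a summed level of 36.5 FPKM against 9.15 FPKM, and the part of this gap in level was not tested. Arhgef6, Hscb, Fyn and Sqle were chosen after their values were seen.

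In 1 further exon the libraries of each group lay very close together. Msi1 encodes the RNA-binding protein Musashi-1, and its 57-nt exon (chr5:115447130-115447186) was included at 77.0%, 76.2% and 75.1% against 99.7%, 99.7% and 99.8%. Its treated libraries spanned less than 2 points and its untreated libraries less than 1. The difference was -23.9 points (adjusted p 0.577). Msi1 too was chosen after its values were seen.

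The separated exons were compared with all kept exons in features that the rule did not use. Of the 109, 70 (64.2%) had a length that is a multiple of 3, against 47.2% of all 5300 and 57.0% of the 1148 exons with intermediate shares, from which 107 of the 109 come. The share was 74.2% for the 31 that lay higher and 60.3% for the 78 that lay lower. The median length was 66 nt for the higher and 102 nt for the lower exons, against 103 nt over all and 96 nt over the 1148. Exons of at most 27 nt numbered 3 of the 31 and 1 of the 78, against 196 of the 5300 and 35 of the 1148.

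The group mean crossed 50% in 47 of the separated exons, 16 higher and 31 lower, against 201 of all 5300, all of these among the 1148 with intermediate shares. Both forms were listed in all 6 libraries in 46 of the 109, against 959 of all 5300 and 614 of the 1148. Among the 78 that lay lower, treated library 3 listed no included form in 29 and untreated library 3 no skipped form in 19. Among the 31 that lay higher, untreated library 3 listed no included form in 9 and treated library 3 no skipped form in 6. Without library 3 of both groups, 63 of the 109 exons were still separated. The summed level of both forms differed by more than 2-fold between groups in 17.4% of the separated exons, against 12.2% of all. Bin1, Emsy, Ktn1, Nipa2, Pml and Sec31a had 2 separated exons each, which share a gene and its transcripts. In Nipa2 and Pml these lay in opposite directions, and the higher one of each was no longer separated without library 3 of both groups.

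Averaged over all kept exons, the included share lay slightly lower after FSH and FBS. The mean included share was 53.9%, 53.6% and 53.3% against 54.5%, 54.6% and 54.3%, so the groups did not overlap. Group means were 53.5% ± 0.313 and 54.4% ± 0.156 (SD, n = 2), a difference of -0.894 points with a two-sided exact permutation p of 0.333, the smallest that 2 against 2 samples allow. Over the 959 exons with both forms listed in every library the difference was -1.70 points, and over the 1148 with intermediate shares -3.55 points.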

How the data were processed

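RNA-seq of cumulus cells was deposited as 1 table a library, which lists transcript events with their position, gene and an FPKM value, per the file headers. The submitters' processing notes name HISAT2 2.0.1 as a tool. Which program assembled transcripts and called events, and on which genome build, is not given in the sources used here, so positions are as the files give them, and depth is unknown. FPKM values of all entries of 1 form of an exon were summed, and a form the authors' tables did not list counted as 0.

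Gene names came from the supplied table (3191 of 3195 IDs matched). Of 5185 exons with a RefSeq symbol, 4999 (96.4%) lay inside that gene in a RefSeq mouse table, used only for this check. Sequences were not used here.

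The test was a two-sided limma fit (3.58.1, under R 4.3.3), its variance trended on the level, of log2((included + 0.5)/(skipped + 0.5)), with libraries 1 and 2 of a group averaged and counted as 1 sample, adjusted by Benjamini-Hochberg over 5300 exons at a threshold of 0.05. A fixed 0.5 lets this ratio move with the summed level where 1 form is unlisted. Single values were compared by an exact permutation test.

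Named exons are the 12 highest and 12 lowest separated differences with at least 5 FPKM in each group (at most 1 a gene, without predicted genes), up to 4 exons a gene list with the smallest limma p, and those of fixed genes such as Fn1, Insr, Vcan and Ktn1. The exons of Map3k7, Tcf7l2, Dst, Mark3 and Nf2 met none of these rules, nor did Acin1 (104 nt), Sec31a (291 nt) and Bin1 (129 nt). These were described after their values were seen, because a separated exon lay in a listed gene. Others are said where they stand to be chosen after their values were seen. Of the 32 exons named by list, 10 differed by less than 1 point. Among other fixed genes, Tra2a, Fas, Bcl2l1, Mcl1, Fgfr1 and Hsd17b4 had no kept exon. The exons, gene lists and rules were chosen with earlier results of these data known. Alternatives changed the unit of replication, the pseudocount, the scale, the minimum level, the summing of entries and the libraries used.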

Additional observations from a re-analysis of the deposited data

How the results depend on the processing

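The count of 0 exons called by limma at an adjusted p below 0.05 changed with the unit of replication and the scale. With the 6 libraries as separate replicates it was 15 higher and 23 lower, and 19 of those 38 had group means less than 1 point apart. On the included share it was 2 higher (Sptan1, and Ivns1abp at a difference of only 0.940 points) and 0 lower. In fits chosen after seeing the data, log odds with a 2% offset called 1 higher (Ivns1abp) and 2 lower (Pml at 151 nt and Tial1), log odds over 6 libraries called 7 higher and 13 lower, and the share over 6 libraries 3 higher and 1 lower. Group means were less than 1 point apart for 1, 2 and 2 of the exons called by these 3 fits. The other settings called 0. Exons at an unadjusted p below 0.05 then numbered 48 among the 959 with both forms listed, and 198 to 448 in the others without a replicate block.

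With a replicate block, limma called 0 exons in both directions, over 6 libraries (874 at an unadjusted p below 0.05, lowest adjusted p 0.129) and over 2 samples a group. Deviations of same-numbered libraries correlated at 0.0274, 0.0303 and 0.158, so the numbers were not taken as pairs. Treated library 1 correlated best with untreated library 2 (0.14).

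Separated exons numbered 13 higher and 30 lower at a minimum of 5 FPKM (of 3099 exons), 51 and 99 with no minimum (of 6331), and 15 and 31 where both forms were listed in all libraries (of 959). Leaving out 1 library gave 48 to 69 higher and 104 to 122 lower, 2.87% to 3.60% of the 5300 in all. Fewer libraries meet the rule of no overlap more easily, so a larger count does not show more switching. Of the 109 separated exons, 81 were kept without FSH and FBS library 3 and 87 without untreated library 3. Without library 3 of both groups, added after seeing the data, there were 91 higher and 153 lower (4.60% of the 5300). Only 63 of them were among the 109. The mean share difference was -0.579 at a minimum of 5 FPKM, -1.70 with both forms listed, and -1.004 to -0.672 with 1 library left out. The cause was not tested beyond what these settings remove.

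Among named exons, 16 changed sign under some setting, and none of them was separated. Over 6 libraries as replicates, with or without the replicate block and on both other scales, the difference was -0.797 for the 167-nt exon of Clk1 and -3.58 for the 87-nt exon of Ktn1. With 1 library left out, differences ran from -3.02 to 1.88 for Clk1 and -8.39 to 11.1 for Ktn1 (same exons), -0.00774 to 11.1 for Fn1, -0.0166 to 0.00499 for Mdm4 (161 nt), -34.5 to 5.34 and -0.953 to 1.22 for Mdm2 (97 and 85 nt), and -48.4 to 14.7 for Numb (33 nt). They ran from -1.20 to 9.54 for Vcan (5217 nt), -5.16 to 23.1 for Crem (36 nt), -0.195 to 0.0269 and -5.51 to 4.12 for Srsf6 (165 and 268 nt), -0.00023 to 4.99 and -9.04 to 5.62 for Mbnl1 (1049 and 95 nt), -0.00104 to 0.949 for Clta (54 nt), -1.32 to 14.5 for Tnc, and -1.47 to 4.60 for Casp2 (61 nt).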
